A study of Mus musculus with 6 samples.

Results

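The messenger RNAs of the mitochondrial genome were examined by RNA sequencing of fat from under the skin of mice, labelled subcutaneous white adipose tissue. All rows of the expression table whose symbol begins with mt- were taken, which gave 13 genes of 36144 gene rows, and the 13 are the protein-coding genes of the mitochondrial genome. GENCODE M21 lists 37 mitochondrial genes, and its 2 ribosomal RNAs and 22 transfer RNAs were not analysed here, so that shares within the mitochondrial total are shares of the coding genes alone. Poly-A RNA was sequenced in 6 libraries, of which 3 carry WT and 3 carry Tumor in the title. What sets the groups apart is labelled in several ways. The titles read WT or Tumor, and each adds that the strand is forward. The genotype label is wild type for Msra in the libraries titled WT and full-body Msra knockout in those titled Tumor, and the treatment label is orthotopic transplant in all 6. The design text names pancreatic ductal adenocarcinoma cells transplanted into the pancreas of wild-type and Msra knockout hosts, with tissue taken 4 to 5 weeks after surgery. The title of the series sets tumour-bearing mice beside mice without a tumour. Levels are in TPM, shares of all transcripts corrected for transcript length, which sum to 1000000 in each library. Msra itself stood at 51.1, 59.1 and 56.3 TPM in the libraries titled WT and at 52.9, 39.99 and 26.9 TPM in those titled Tumor, so the knockout label is not matched by a loss of its transcript. The groups are called here WT-labelled and Tumor-labelled libraries. The sources used here give no strain, age or name of the transplanted cells. They name no preparation or sequencing batch, and one that went with the group could not be told apart from it.

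Mitochondria keep a small circular genome that codes for subunits of respiratory complexes I, III and IV and of complex V, the ATP synthase. All other subunits come from nuclear genes. Both strands of the circle are transcribed into long RNAs, and transfer RNAs that lie between the coding genes mark where these are cut. The mRNAs then receive short poly-A tails, which also complete stop codons that the genome leaves unfinished. In white fat, mitochondria supply acetyl units and energy for fatty acid synthesis and handle fatty acids, and they are most abundant in brown and beige adipocytes.

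On the GRCm38 build, 12 of the 13 genes lie on the plus strand of chromosome M and 1, mt-Nd6, on the minus strand. Coordinates and sequences below are from GENCODE M21. The length of 3 genes is not a multiple of 3, and their last codon is a single T. Their last 30 bases, with that base in capitals, are shown because these mRNAs depend on the poly-A tail for a stop codon, the same feature by which the libraries were selected.
mt-Co3, chrM:9361-9390, plus strand: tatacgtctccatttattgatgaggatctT
mt-Nd4, chrM:11515-11544, plus strand: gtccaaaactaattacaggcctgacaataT
mt-Cytb, chrM:15259-15288, plus strand: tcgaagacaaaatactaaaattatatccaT

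Some coding genes overlap, so that reads in the overlap cannot be assigned to 1 gene. The longest overlap, of 43 bases, joins mt-Atp8 and mt-Atp6, which share 1 mRNA. In the overlap the first 3 bases of mt-Atp6 and the last 3 bases of mt-Atp8 are in capitals.
mt-Atp8 and mt-Atp6, chrM:7927-7969, plus strand: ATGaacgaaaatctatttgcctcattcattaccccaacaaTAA
The genes mt-Nd4l and mt-Nd4, on another shared mRNA, overlap by 7 bases. The ends of mt-Nd5 and mt-Nd6 overlap by 14 bases on opposite strands.

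A further ambiguity comes from the nucleus. Fragments of mitochondrial DNA have been copied into chromosomes, and 16 annotated pseudogenes had a transcript at least 90% identical to a mitochondrial gene over at least 80% of its length. A block of 7 of them lies on chromosome 1 between 24611535 and 24616197, and 5 of these are identical to their mitochondrial gene over the whole aligned length. The other two are Gm29216 (chromosome 1, 24615706 to 24616197), a copy of the end of mt-Co1, and Gm28438 (24612775 to 24613119), a copy of mt-Nd3. Their first 40 bases are set beside the mitochondrial bases opposite to them, with differing bases in capitals, because most of the copied transcript in the table was assigned to these.
mt-Co1, chrM:6381-6420, plus strand: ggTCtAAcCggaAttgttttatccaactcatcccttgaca
Gm29216, chr1:24616158-24616197, minus strand: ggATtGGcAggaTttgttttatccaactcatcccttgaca
mt-Nd3, chrM:9459-9498, plus strand: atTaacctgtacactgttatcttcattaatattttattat
Gm28438, chr1:24613080-24613119, minus strand: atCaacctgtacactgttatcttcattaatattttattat
Counted from the first base of the mitochondrial transcript, Gm29216 differs from mt-Co1 by T1056A, C1057T, A1059G, A1060G, C1062A and A1066T, and the 479 bases after the last of these are identical. Gm28438 differs from mt-Nd3 by T3C alone.

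Read totals are not known, since TPM keep no depth. As context for the tissue, all 10 adipocyte markers were at 1 TPM or more in at least 3 libraries, with a summed level of 31332 to 56080 TPM in the WT-labelled libraries and 13007 to 45829 TPM in the Tumor-labelled ones. The 6 libraries also differed in other tissue. The 5 lymph node stroma and venule markers summed to 2043, 2300 and 46.3 TPM in WT replicates 1 to 3 and to 58.0, 1672 and 3428 TPM in Tumor replicates 1 to 3, so that WT replicate 3 and Tumor replicate 1 held little lymph node RNA. The 10 skeletal muscle markers summed to 20.0, 3287 and 10.2 TPM against 2181, 673 and 2755 TPM. The 8 brown or beige adipocyte markers summed to 873, 2435 and 868 TPM against 279, 401 and 252 TPM, without overlap between the groups, and 1 of the 8, Elovl3, was at 0 in a library. Cd79a, a part of the B cell receptor, followed the lymph node markers, at 277, 235 and 0.775 against 1.71, 449 and 712 TPM. Acta1, the actin of skeletal muscle, stood at 0.953, 612 and 2.82 against 410, 135 and 575 TPM. The 8 macrophage markers summed to 1033 to 1106 against 1097 to 2277 TPM, and the 6 epithelial markers to 0.492 to 14.8 against 1.45 to 6.51 TPM, with Krt8, Krt14 and Krt5 at 0 in at least 1 library.

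Mitochondrial mRNAs were a large part of the tissue's messenger RNA, and their share was lower in every Tumor-labelled library than in every WT-labelled library. The 13 genes took 14.7%, 14.9% and 18.6% of all TPM in the WT-labelled libraries and 13.2%, 12.3% and 8.52% in the Tumor-labelled ones. The means were 16.1% ± 2.22 and 11.3% ± 2.47 (SD, n = 3), a difference of -4.75 percentage points (exact permutation p = 0.1, two-sided, the smallest that 3 against 3 libraries allow). WT replicate 3 was highest and Tumor replicate 3 lowest, and without Tumor replicate 3 the difference was -3.35 points. The nearest libraries of the groups were WT replicate 1 and Tumor replicate 1. Among the 10 most abundant rows of each library 6 or 7 were mitochondrial.

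The tissue makeup moved with this share in part. Tumor replicate 3, with the lowest mitochondrial share, also had the lowest adipocyte marker sum (13007 TPM) and the highest lymph node sum. WT replicate 3, with the highest share, had the highest adipocyte marker sum. The 2 libraries with little lymph node RNA had Adipoq, an adipocyte hormone, at 3403 TPM (WT replicate 3) and 3455 TPM (Tumor replicate 1), while their mitochondrial shares were 18.6% and 13.2%. Without these 2 libraries the mitochondrial share differed by -4.40 points. The ratio of mitochondrial mRNA to the adipocyte marker sum was 4.68, 4.07 and 3.32 in the WT-labelled libraries and 2.88, 3.61 and 6.55 in the Tumor-labelled ones, which overlap. Markers of brown or beige adipocytes, which are rich in mitochondria, also moved with the groups (sums above), with Ucp1, their uncoupling protein, at 71.1, 507 and 15.7 TPM against 0.383, 2.21 and 2.27 TPM. The part that cell makeup has in the mitochondrial share was not tested. In bulk tissue, fewer cells of a type and less RNA per cell cannot be told apart.

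**Figure D1:**
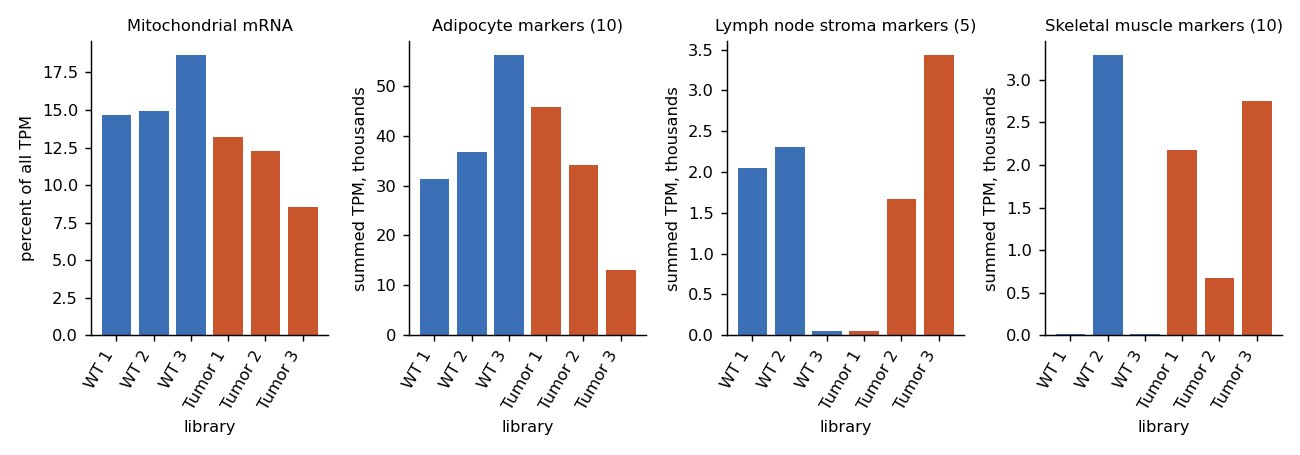
Bars give 1 value per library, blue for WT and orange for Tumor: the mitochondrial mRNA share in percent of all TPM, and the summed TPM of markers of adipocytes, lymph node stroma and venules, and skeletal muscle. The mitochondrial share falls in 2 groups without overlap (14.7% to 18.6% and 8.52% to 13.2%). Each of the marker sums drawn overlaps between the groups. The sum of brown or beige adipocyte markers, not drawn, does not overlap (868 to 2435 and 252 to 401 TPM).

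Gene by gene, the fit over all 14144 genes that reached 1 TPM in 3 or more libraries called 0 of the 13 (limma on log2(TPM + 1), adjusted p 0.737 to 0.857), as it called 0% of all genes. At an unadjusted p below 0.05, 0 of the 13 passed, against 771 of all genes (5.45%). The log2 difference, Tumor against WT, was negative for 13 of 13, which held for 23.2% of all genes, and the median over the 13 was -0.51, against 0.23 over all genes tested. It was -0.5 or lower for 7 of the 13, against 4.28% of all genes. For 6 of the 13 every Tumor-labelled library lay below every WT-labelled library, as for 3.24% of all genes, and 0 lay above (11.8% of all genes, 15% in either direction). Of these genes, the 12 on the plus strand share their primary transcripts, so the 13 are not independent of each other. The mitochondrial total also enters the TPM of every other gene.

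Complex I, which takes electrons from NADH, has 7 mitochondrial subunits, and these had the lowest levels. The subunit mt-Nd1 (chromosome M, 2751 to 3707), in the membrane arm next to the quinone site, stood at 8758, 9900 and 10526 TPM in the WT-labelled libraries and at 6996, 6457 and 4969 TPM in the Tumor-labelled ones. Its groups did not overlap, and its log2 difference of -0.67 (SE 0.30, limma adjusted p = 0.737) was the lowest of the 13. The small subunit mt-Nd3 (9459 to 9806) stood at 3611, 4645 and 3198 against 2556, 2661 and 2237 TPM, also without overlap, and differed by -0.61 on the log2 scale (SE 0.27, limma adjusted p = 0.737). In both genes the library labelled Tumor with the lowest value was replicate 3.

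The proton-pumping subunits mt-Nd2, mt-Nd4 and mt-Nd5 resemble ion antiporters. The values of mt-Nd2 were 5703, 5154 and 8662 TPM against 5154, 4374 and 2884 TPM, so that WT replicate 2 and Tumor replicate 1 were level. Those of mt-Nd4 were 6456, 5862 and 9752 against 6783, 5754 and 3583 TPM, and those of mt-Nd5 were 1865, 1200 and 3107 against 1968, 1944 and 1042 TPM. In these 3 genes the groups overlapped, with WT replicate 3 highest and Tumor replicate 3 lowest. The small subunit mt-Nd4l varied most of all, at 4415, 2027 and 7746 TPM against 4487, 3835 and 1806 TPM, a 4.29-fold range over the 6 libraries. Its low values were in WT replicate 2 and Tumor replicate 3, 1 library of each group.

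The only coding gene on the minus strand, mt-Nd6 (13552 to 14070), was the scarcest. It is another membrane subunit of complex I, and in human cells its mRNA is known to carry little or no poly-A tail. It stood at 16.6, 20.7 and 22.1 TPM in the WT-labelled libraries and at 22.2, 17.8 and 12.0 TPM in the Tumor-labelled ones, and the groups overlapped. Its neighbour mt-Nd5, the next in the order of levels, was above it by 6.58 ± 0.438 on the log2 scale (SD, n = 6). The titles of all 6 libraries carry the words forward strand, but whether this was the setting used in counting is not stated, so the level of mt-Nd6 beside its neighbour on the opposite strand is uncertain.

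The sole mitochondrial subunit of complex III, the complex that carries electrons from quinol to cytochrome c, is cytochrome b, mt-Cytb (14145 to 15288). It stood at 10790, 11698 and 14720 TPM in the WT-labelled libraries and at 9100, 8683 and 6059 TPM in the Tumor-labelled ones. The groups did not overlap, with means of 12403 ± 2058 and 7947 ± 1648 TPM (SD, n = 3) and a difference of -0.65 on the log2 scale (SE 0.33, limma adjusted p = 0.737).

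Complex IV, cytochrome c oxidase, has its catalytic core, mt-Co1, mt-Co2 and mt-Co3, from the mitochondrial genome. These were among the most abundant rows of the table. The copper-binding subunit mt-Co2 (7013 to 7696) stood at 24620, 31445 and 26056 TPM against 21101, 19390 and 15122 TPM, and mt-Co3 (8607 to 9390) at 19589, 25165 and 22529 against 16763, 16625 and 13073 TPM. Both had groups without overlap, with log2 differences of -0.57 (SE 0.35) and -0.54 (SE 0.33) and a limma adjusted p of 0.737 for each. The largest subunit, mt-Co1 (5328 to 6872), stood at 21030, 18118 and 26528 against 18523, 18159 and 12313 TPM and overlapped, since WT replicate 2 lay below 2 libraries labelled Tumor.

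Complex V, the ATP synthase, has 2 mitochondrial subunits in its membrane part. The proton channel subunit mt-Atp6 (7927 to 8607) stood at 21321, 23186 and 25289 TPM against 19476, 17424 and 12747 TPM, without overlap, and differed by -0.51 on the log2 scale (SE 0.35, limma adjusted p = 0.737). The short mt-Atp8 (7766 to 7969), on the same mRNA, stood at 18372, 11014 and 28229 against 18912, 17462 and 9336 TPM and overlapped. The ratio of mt-Atp8 to mt-Atp6 ran from 0.475 in WT replicate 2 to 1.12 in WT replicate 3, although the 2 reading frames share a transcript.

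**Figure D2:**
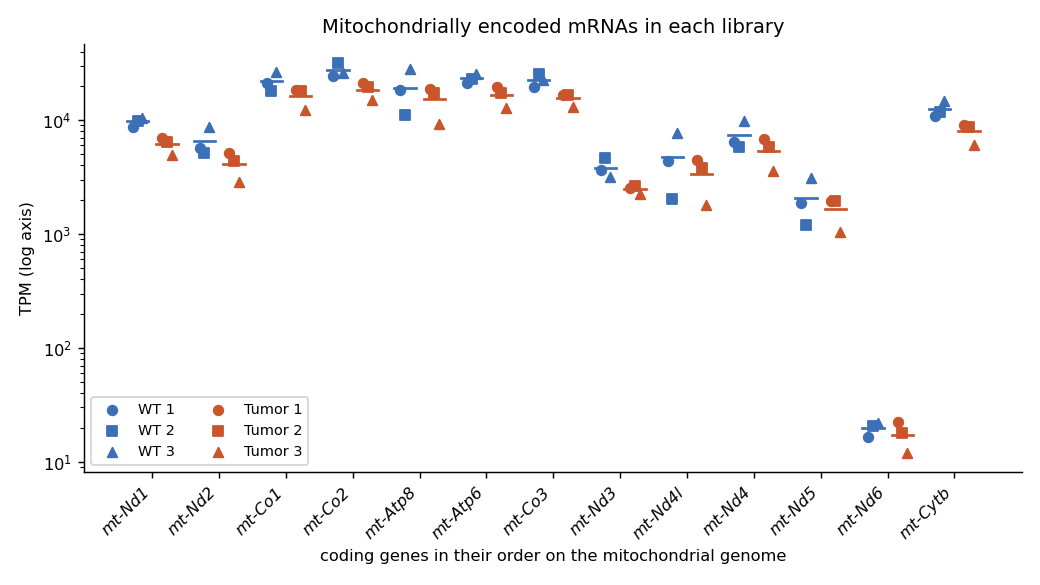
Points give the TPM of each gene in each library on a log axis, blue for WT and orange for Tumor, with a bar at each group mean and genes in their order along the mitochondrial genome. Group means differ by 1.14-fold to 1.58-fold, and mt-Nd6 stands apart at 12.0 to 22.2 TPM.

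By mean level over the 6 libraries, without nuclear copies, the order was mt-Co2, mt-Atp6, mt-Co1, mt-Co3, mt-Atp8, mt-Cytb, mt-Nd1, mt-Nd4, mt-Nd2, mt-Nd4l, mt-Nd3, mt-Nd5 and mt-Nd6. The lead of mt-Co2 over mt-Atp6 held in 6 of 6 libraries. The order from mt-Atp6 to mt-Atp8 did not hold beyond the spread. The log2 ratio of mt-Co1 to mt-Co3 was 0.0082 ± 0.259 (SD, n = 6), and mt-Co3 exceeded mt-Atp8 in 3 of 6 libraries. From mt-Cytb down to mt-Nd4l each gene exceeded the next in 6 of 6 libraries, while mt-Nd4l exceeded mt-Nd3 in 4 of 6. This order depended on the copies. With copies added by length, mt-Co1 stood above mt-Co2 in every library, with group means of 31758 and 22917 against 27385 and 18542 TPM. In WT replicate 3 mt-Atp6 then also stood above mt-Co2, at 26496 against 26081 TPM. The group means of mt-Nd3 became 7137 and 4694 TPM, above those of mt-Nd2 at 6507 and 4138 TPM. Without copies, complex IV genes together held 40.3% to 50.0% of the coding total, complex V genes 22.9% to 29.1%, complex I genes 19.3% to 23.1% and mt-Cytb 6.90% to 7.90%.

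The makeup of the mitochondrial mRNA pool varied widely among libraries of the same group. Each gene was expressed as a percent of the coding total, first without nuclear copies. The share of mt-Nd4l was 3.01%, 1.36% and 4.16% in the WT-labelled libraries and 3.40%, 3.12% and 2.12% in the Tumor-labelled ones. The share of mt-Nd3 was 2.46%, 3.11% and 1.72% against 1.94%, 2.17% and 2.63%, high where mt-Nd4l was low. With the copy Gm28438 added to mt-Nd3 by length, and all copies to the coding total, its share was 3.79% to 3.89% in 5 libraries and 4.64% in WT replicate 2, a narrower spread than without the copy. The 2 genes lie side by side on the same strand with 1 transfer RNA between them, and the ratio of mt-Nd4l to mt-Nd3 ran from 0.436 in WT replicate 2 to 2.42 in WT replicate 3, or from 0.262 to 1.02 in the same libraries with copies added.

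WT replicate 2 stood apart in this makeup. It had the lowest share of mt-Atp8 (7.37%, against 10.96% to 15.1% in the other libraries), of mt-Nd4l and of mt-Nd5 (0.803%, against 1.22% to 1.67%), and the highest share of mt-Co2 (21.04%, against 14.0% to 17.8%) and of mt-Co3 (16.8%, against 12.1% to 15.3%). Tumor replicate 3 was next to it in these 5 genes, with or without copies. The share of mt-Co1 in WT replicate 2 was the lowest of the 6 libraries without copies (12.1%) and the highest with them (19.3%). WT replicate 2 and Tumor replicate 3 also had the highest skeletal muscle marker sums (3287 and 2755 TPM). They had the highest lymph node marker sums as well (2300 and 3428 TPM). Tumor replicate 1, with a muscle sum of 2181 TPM, had mt-Atp8 at 14.3% and mt-Nd4l at 3.40%. The part of muscle or lymph node RNA in this makeup was not tested.

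Between groups, the share did not overlap for 2 of the 13 genes. The share of mt-Cytb was 7.36%, 7.83% and 7.90% in the WT-labelled libraries and 6.90%, 7.07% and 7.11% in the Tumor-labelled ones (exact permutation p = 0.1, and 0.65 after Benjamini-Hochberg adjustment over the 13 shares). The share of mt-Nd6 was 0.0113%, 0.0139% and 0.0118% against 0.0168%, 0.0145% and 0.0141% (exact permutation p = 0.1, adjusted 0.65). When all 14144 genes were divided by the same coding total, 0.714% lay lower in every Tumor-labelled library and 40.7% lay higher (41.5% in either direction). That total was itself lower in every Tumor-labelled library, and division by it moves genes outside it up. These percents therefore cannot say whether the share of mt-Cytb or of mt-Nd6, both parts of the total, is unusual. The shares of the other 11 genes overlapped.

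**Figure D3:**
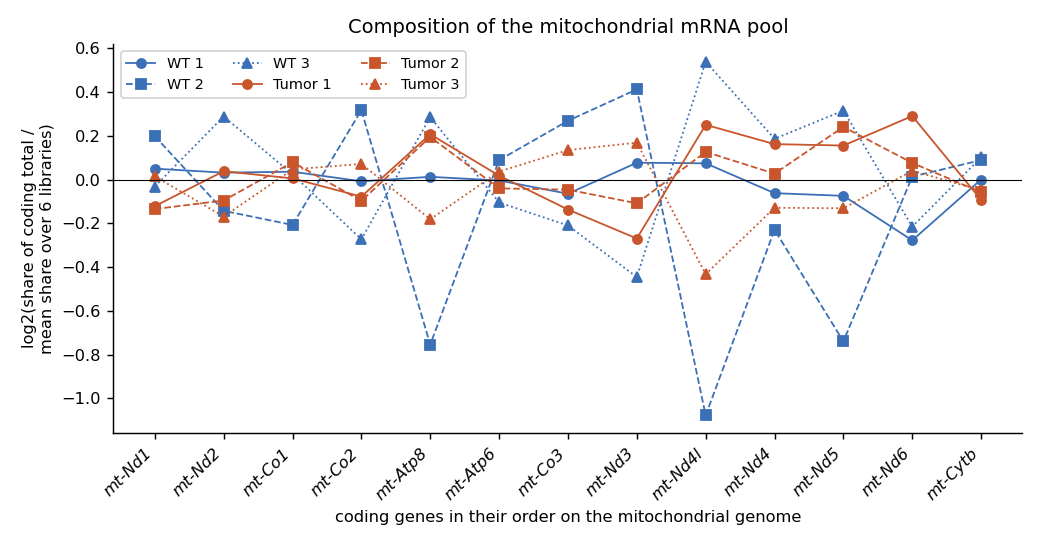
Each line is 1 library (blue WT, orange Tumor) and gives, gene by gene along the mitochondrial genome, the log2 of its share of the coding total over the mean share in the 6 libraries. WT replicate 2 falls lowest at mt-Atp8, mt-Nd4l and mt-Nd5, whose shares there are 7.37%, 1.36% and 0.803%.

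The nuclear copies held a sizeable part of the mitochondrial signal. Gm29216, the copy of the end of mt-Co1, stood at 23543, 44283 and 25089 TPM in the WT-labelled libraries and at 24714, 20188 and 17108 TPM in the Tumor-labelled ones, and it was the most abundant row of the table in 4 of 6 libraries. Gm28438, the copy of mt-Nd3, stood at 2502, 3114 and 4426 against 2973, 2451 and 1261 TPM. The third copy with a mean above 100 TPM, Gm10925, is identical to mt-Atp6 where they align and stood at 190, 70.1 and 1212 against 123, 16.4 and 218 TPM. Gm28439 and Gm10222, identical to mt-Nd4 and mt-Nd4l where they align, were listed at 0 in all 6 libraries. On chromosome 2, Gm13341 (22587291 to 22587962), a copy of mt-Co2, averaged 4.98 TPM and Gm13340 (22588103 to 22589647), a full-length copy of mt-Co1, 3.02 TPM. Gm28661, a copy of mt-Co2 on chromosome 1, averaged 2.87 TPM and reached 16.8 TPM in WT replicate 3.

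As a share of all TPM the copies took 2.62%, 4.75% and 3.08% in the WT-labelled libraries and 2.78%, 2.27% and 1.86% in the Tumor-labelled ones. The sources used here do not say how reads that match both a gene and its copy were divided. When the copies were weighted by transcript length and added to their gene, they made up 23.2% to 43.8% of the mt-Co1 sum and 35.8% to 57.8% of the mt-Nd3 sum. WT replicate 2 had the largest part of mt-Co1 in the copies. With the copies, mt-Co1 stood at 28530, 32223 and 34523 TPM against 26397, 24590 and 17763 TPM, so that groups that overlapped in the gene alone no longer did. Its log2 difference was -0.49 (SE 0.36, limma adjusted p = 0.743) with the copies and -0.43 without. For mt-Nd3 the sums were 6092, 7733 and 7585 against 5503, 5091 and 3487 TPM, and the difference was -0.62 on the log2 scale (SE 0.32, limma adjusted p = 0.736), against -0.61 without. With copies added, 8 of the 13 genes had groups without overlap, all lower in the Tumor-labelled libraries. Without copies this held for 6 of the 13 and for 3.24% of all genes. Of the 8 genes 1, mt-Nd2, was separated by less than 1 TPM. The mitochondrial share with copies was 17.3%, 19.7% and 21.7% against 15.97%, 14.5% and 10.4% (exact permutation p = 0.1).

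**Figure D4:**
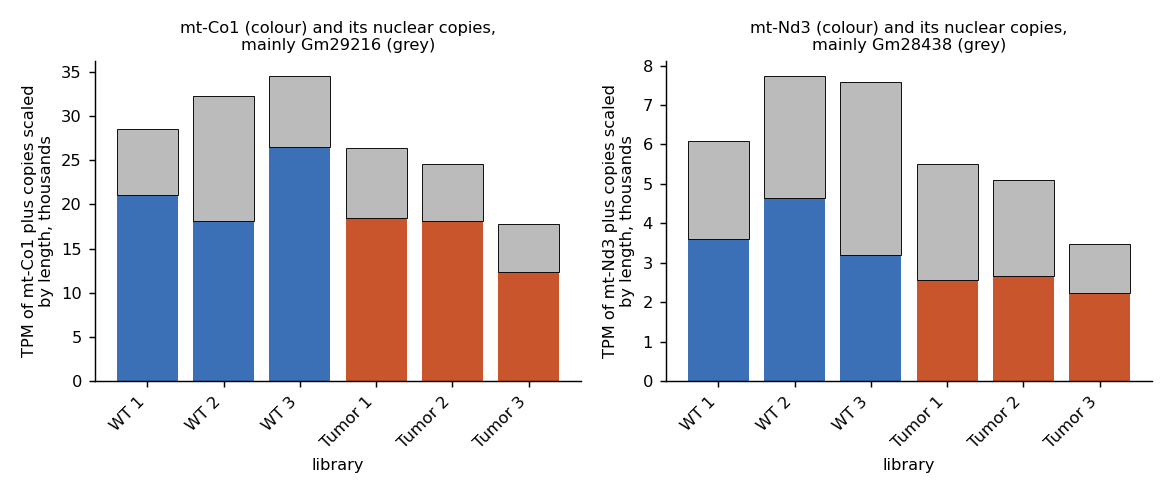
Coloured bars give the TPM of mt-Co1, left, and mt-Nd3, right, in each library, blue for WT and orange for Tumor, and grey bars the TPM of their nuclear copies scaled by length. The copies hold 43.8% of the mt-Co1 sum in WT replicate 2 and 57.8% of the mt-Nd3 sum in WT replicate 3.

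Subunits of the same complexes from the nuclear genome had lower values in the same libraries, and the ratio of mitochondrial to nuclear mRNA overlapped between the groups. Over complexes I, III, IV and V, 72 nuclear genes were summed. They were listed as subunits, but Atpif1, counted with complex V, is a regulator of the ATP synthase and not a subunit. Their sum was 29164, 36547 and 30888 TPM in the WT-labelled libraries and 25203, 22876 and 18239 TPM in the Tumor-labelled ones. The 13 mitochondrial genes stood at 5.02, 4.09 and 6.03 times this sum against 5.23, 5.37 and 4.67 times, with means of 5.05 ± 0.973 and 5.09 ± 0.369 (SD, n = 3, exact permutation p = 1). WT replicate 2 was lowest and WT replicate 3 highest, so the WT-labelled libraries spanned the Tumor-labelled ones.

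By complex, the mitochondrial-to-nuclear ratio of complex I was 3.40, 2.49 and 4.40 against 3.43, 3.37 and 2.86. That of complex III was 2.56, 2.22 and 3.48 against 2.75, 2.89 and 2.52. That of complex IV was 8.24, 7.36 and 8.76 against 8.39, 8.92 and 8.76, and that of complex V 5.00, 3.59 and 6.45 against 5.47, 5.49 and 4.07. None of the 4 separated the groups, and the log2 ratios differed by -0.06, 0.01, 0.10 and 0.03 in this order (exact permutation p of 0.9, 1, 0.2 and 1, adjusted 1, 1, 0.8 and 1). With 3 libraries a group this test cannot go below 0.1. The median log2 differences were alike in size, at -0.47 for the mitochondrial and -0.47 for the nuclear subunits of complex I, -0.65 and -0.72 for complex III, -0.54 and -0.61 for complex IV, and -0.40 and -0.43 for complex V. Among the nuclear genes 36 of 36, 9 of 9, 11 of 11 and 14 of 16 had a negative difference, against 23.2% of all genes. Those of complex V with a positive log2 difference were Atp5g1 (0.21) and the regulator Atpif1 (0.62).

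**Figure D5:**
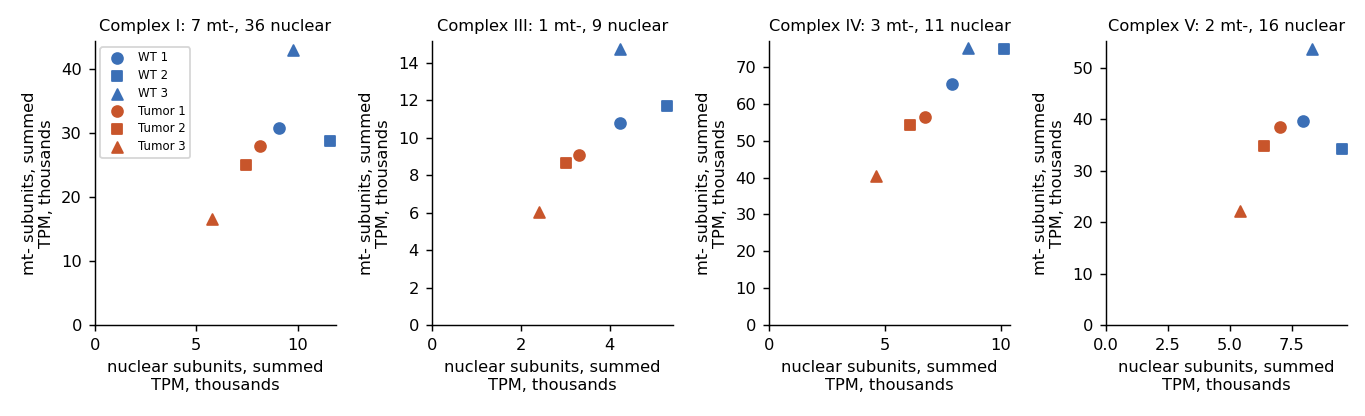
Each point is 1 library (blue WT, orange Tumor), with the summed TPM of the nuclear subunits of a complex on the horizontal axis and that of its mitochondrial subunits on the vertical axis. The nuclear sum of complex V includes the regulator Atpif1. Tumor replicate 3 lies at the lower left in each panel, and WT replicate 2 has the lowest ratio of mitochondrial to nuclear mRNA in each, from 2.22 (complex III) to 7.36 (complex IV).

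Nuclear genes that act on the mitochondrial genome and its RNA had positive and negative differences in proportions near those of all genes. Their products transcribe or copy the genome, or cut, modify, stabilise or degrade the RNA. Of 47 listed names, of which 2 are alternative symbols of 1 gene, 46 were in the table and tested. Of these 0 passed (limma, against 0% of all genes), with 1 at an unadjusted p below 0.05 (5.45% of all genes). Their median log2 difference was 0.13, against 0.23 over all genes, with 34 positive (76.8% of all genes) and 12 negative (23.2%). Groups did not overlap for 6 of 46 as lower, a larger part than the 3.24% of all genes. They did not overlap for 3 of 46 as higher, a smaller part than the 11.8% of all genes. The 46 include 9 genes for ribosomal RNA modification, of which 1 lay lower and 1 higher without overlap. With median-ratio factors the median of the 46 was -0.08, so its sign rests on the scaling.

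The 7 transcription genes had a median log2 difference of 0.18, below the 0.23 of all genes, and 7 of 7 were positive (76.8% of all genes). Polrmt, the mitochondrial RNA polymerase, stood at 29.98, 35.9 and 24.5 TPM in the WT-labelled libraries and at 28.4, 36.4 and 36.5 TPM in the Tumor-labelled ones. Tfam, which packs mitochondrial DNA and opens its promoters, stood at 35.0, 29.7 and 26.7 against 30.5, 51.6 and 60.5 TPM. Its 2 high values were in the Tumor-labelled libraries with much lymph node RNA. The WT-labelled libraries with much of it, replicates 1 and 2, stood at 35.0 and 29.7 TPM. The part of lymph node RNA in the level of Tfam was not tested. The groups overlapped for Tfam (log2 difference 0.58, SE 0.28, limma adjusted p = 0.737). Tfb2m, which melts the promoter with the polymerase, averaged 26.6 ± 2.64 and 31.6 ± 3.85 TPM, and Tefm, an elongation factor, 10.2 ± 0.642 and 11.1 ± 2.99 TPM (SD, n = 3).

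Among factors that cut, stabilise or degrade the RNA, 4 had lower values without overlap, a larger part than the 3.24% of all genes. They were 1 of 4 tested genes for cutting and 3 of 17 for stability, poly-A and decay. Hsd17b10, a dehydrogenase that is also part of the enzyme cutting transfer RNAs at their 5′ end, stood at 144, 147 and 163 against 143, 119 and 84.1 TPM. Slirp, which with Lrpprc binds and protects mitochondrial mRNAs, stood at 113, 119 and 97.5 against 92.5, 94.8 and 68.6 TPM. Lrpprc stood at 21.7, 21.6 and 21.3 against 17.0, 20.3 and 21.2 TPM, and its nearest values were 21.27 and 21.22 TPM. The exonuclease Rexo2, the other gene without overlap, was chosen after its values were seen and averaged 124 ± 11.3 and 107 ± 0.746 TPM (SD, n = 3). Log2 differences of these genes without overlap ran from -0.42 to -0.14, and none passed the test. The values of Trmt10c, which works with Hsd17b10, averaged 10.1 ± 1.87 and 11.7 ± 1.27 TPM. Elac2, which cuts the 3′ end, averaged 16.2 ± 0.806 and 16.3 ± 1.79 TPM. The poly-A polymerase Mtpap averaged 17.1 ± 2.14 and 18.8 ± 1.52 TPM and the RNA-degrading Pnpt1 16.6 ± 4.30 and 19.8 ± 0.328 TPM. In replication, the polymerase subunit Polg stood at 39.5, 35.2 and 33.5 against 45.3, 45.3 and 47.3 TPM, without overlap (log2 difference 0.34, SE 0.14, limma adjusted p = 0.737), and the helicase Twnk averaged 7.50 ± 0.195 and 8.21 ± 1.19 TPM.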

How the data were processed

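The authors deposited 1 table named as raw counts, whose values are TPM, as the values show: they are not whole and each library sums to 1000000. Poly-A RNA of samples with an RNA integrity number above 7 went into TruSeq libraries, per the labels' protocols. Per the submitters' processing notes the build was GRCm38.p6 and DESeq2 was used, with no role given. The sources used here do not name an aligner, quantifier or annotation.

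The fit was limma 3.58.1 (R 4.3.3) with trend and robust moderation on log2(TPM + 1), group alone, over genes that reached 1 TPM in 3 or more libraries, with Benjamini-Hochberg adjustment and a threshold of 0.05. Differences on this scale understate changes of low genes. Single values were compared by exact permutation of the 6 libraries. The labels call replicates biological. On simulated data with 200 of 14144 genes changed, the fit found 63.6% of the 4-fold and 0% of the 2-fold changes at the observed spread. Nuclear copies were found with BLAST 2.17.0 among GENCODE M21 transcripts. The rule for names takes every mt- gene, a fixed set of partner genes and nuclear copies averaging at least 1 TPM. Gm28439 and Gm10222 were named after their values were seen. Members and lists were chosen with earlier results of these data known. Ribosomal and transfer RNAs were not analysed here. Alternatives were pseudocounts, filters, scalings, moderation, a replicate block and leaving out libraries.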

Additional observations from a re-analysis of the deposited data

How the results depend on the processing

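Under the 18 alternatives run for it, the count of mitochondrial genes past the limma threshold was 0. For the 13 genes the median log2 difference lay between -0.64 and -0.33 with a library left out and between -0.74 (median-ratio factors) and -0.51 otherwise. Median-ratio factors moved the median of all genes from 0.23 to 0.03 and the unadjusted calls (p below 0.05) from 530 higher and 241 lower to 122 and 539. The sign of single genes turned in 7 of 234 values, in each case without WT replicate 3 or without Tumor replicate 3. With a library left out, mt-Atp8 ran from -0.65 to 0.033, mt-Nd4l from -0.90 to 0.072, mt-Nd5 from -0.60 to 0.084 and mt-Nd6 from -0.40 to 0.013. The cause was not tested. The mitochondrial share of TPM differed by -5.68 to -3.35 points with each library left out and by -5.93 points with nuclear copies. The log2 ratio of mitochondrial to nuclear subunits changed sign with libraries left out for complex I (-0.27 to 0.14), complex III (-0.13 to 0.19) and complex V (-0.19 to 0.23). Complex I gave 0.094 without the 2 libraries poor in lymph node RNA and, as mean log2(TPM + 1), 0.037, where complex V gave -0.082. The median of the 46 partner genes became -0.085 under median-ratio factors and lay at 0.069 to 0.27 with libraries left out, the highest without Tumor replicate 1. Adding nuclear copies and leaving out those 2 libraries were choices made after seeing the data.

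With the replicate number as a block, the median of the 13 genes was -0.51, 0 genes passed, and 183 genes had an unadjusted p below 0.05 instead of 771. Deviations of libraries with the same number correlated at -0.76, 0.20 and -0.84. The highest correlation, 0.85, was between WT replicate 3 and Tumor replicate 1, the libraries poor in lymph node RNA. Tissue makeup enters these values, so they cannot tell whether the numbers pair the libraries. Shares of ribosomal and transfer RNAs, and the share with these left out, were not run. TPM keep no read totals, so counting error is unknown, and short genes such as mt-Atp8 depend most on the length correction.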
